A study of Rattus norvegicus with 19 samples.

Results

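Imprinted growth genes were described across rat hearts with experimental heart failure with preserved ejection fraction (HFpEF). The genes were chosen by name, as 8 symbols of growth control that are expressed from a single parental allele (Igf2, Igf2r, Mest, Peg3, Dlk1, Cdkn1c, Plagl1 and Grb10), and all 8 were among the 17455 gene symbols of the count files. The change between weeks 5 and 9 in control hearts was examined first, followed by the disease and treatment comparisons.

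RNA was sequenced from the left ventricles of Sprague-Dawley rats that were 24 weeks old at the start, labelled wild type and male, with 1 library per heart and 19 libraries in 7 groups. Control 5w and control 9w (3 libraries each) were taken at weeks 5 and 9, ate normal chow and received no L-NAME. HFpEF (3 libraries) was taken at week 5, after 5 weeks of drinking water with 0.5 g/L L-NAME, which blocks the synthesis of nitric oxide, and a diet that drew 60% of its energy from fat. Untreated (3 libraries), EMPA (2), PFD (2) and EMPA + PFD (3) had the same induction and were taken at week 9, after 4 weeks of daily gavage. The SGLT2 inhibitor empagliflozin (0.35 g/kg/day) was given to EMPA rats and the antifibrotic pirfenidone (0.3 g/kg/day) to PFD rats, while EMPA + PFD rats had both drugs and untreated rats the buffer alone. Library totals ran from 7430539 to 13017754 counts.

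Some libraries went against their labels or stood apart. The Y-linked gene Eif2s3y had 0 counts in 7 of the 19 libraries, all labelled male: HFpEF replicates 1 and 3, the 3 untreated libraries and both PFD libraries. In the other 12 libraries it had at least 613 counts. The class I histocompatibility gene RT1-CE16 had at most 3 counts in 8 libraries, those of EMPA and of both week 5 groups, and at least 308 in each library of the other groups. Control 5w and control 9w thus both carried Eif2s3y counts but differed in RT1-CE16, and this difference and the time point cannot be told apart. Untreated and control 9w differed in Eif2s3y in every library, as did untreated and EMPA + PFD. HFpEF and untreated differed in RT1-CE16 in every library, and EMPA and untreated in both genes. In each of these comparisons the group and this difference cannot be told apart. Untreated replicate 2 had 19668 counts of the atrial light chain Myl4, against 41 and 46 in replicates 1 and 3, and control 9w replicates 1 and 3 had 2702 and 13853, against 24 in replicate 2. The cartilage collagen Col2a1 had 15993 counts in HFpEF replicate 1 and 6071 in EMPA replicate 2, and at most 20 in every other library. The summed chondrocyte and bone markers were 1647 and 1230 CPM in these 2 libraries and at most 34.9 CPM elsewhere.

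Imprinted genes are silenced on the allele from the mother or the father, and many of them act on growth before birth. Igf2 is a paternally expressed growth factor, and Igf2r is the receptor that takes it up for degradation, so that the pair act in opposite directions on growth. In the heart, several of these genes are high in the fetus and decline after birth, and Igf2 is known as a signal for growth of the fetal ventricle.

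All 8 genes passed the expression filter, together with 12388 genes in all. Levels are in CPM, counts scaled to a common library size after TMM normalization. A differentially expressed gene (DEG) differed at least 2-fold in either direction, with a Benjamini-Hochberg adjusted p under 0.05 in edgeR's quasi-likelihood test. Between control 5w and control 9w, 2 of the 8 genes were DEGs, Igf2r and Plagl1, against 14.7% of all tested genes. At an adjusted p under 0.05 alone the count was again 2 of 8, against 34.5% of tested genes. The libraries of these 2 groups did not overlap for 3 of the 8 genes (Igf2r, Plagl1 and Peg3), against 49.4% of tested genes. Without control 9w replicate 2 the DEGs among all tested genes were 1206, against 1817 with it, and the count of the 8 was 1 without control 5w replicate 1 (Igf2r) and 1 without control 5w replicate 2 (Plagl1). Their median log2 difference was 0.0569, and that of all tested genes was -0.038.

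**Figure D1:**
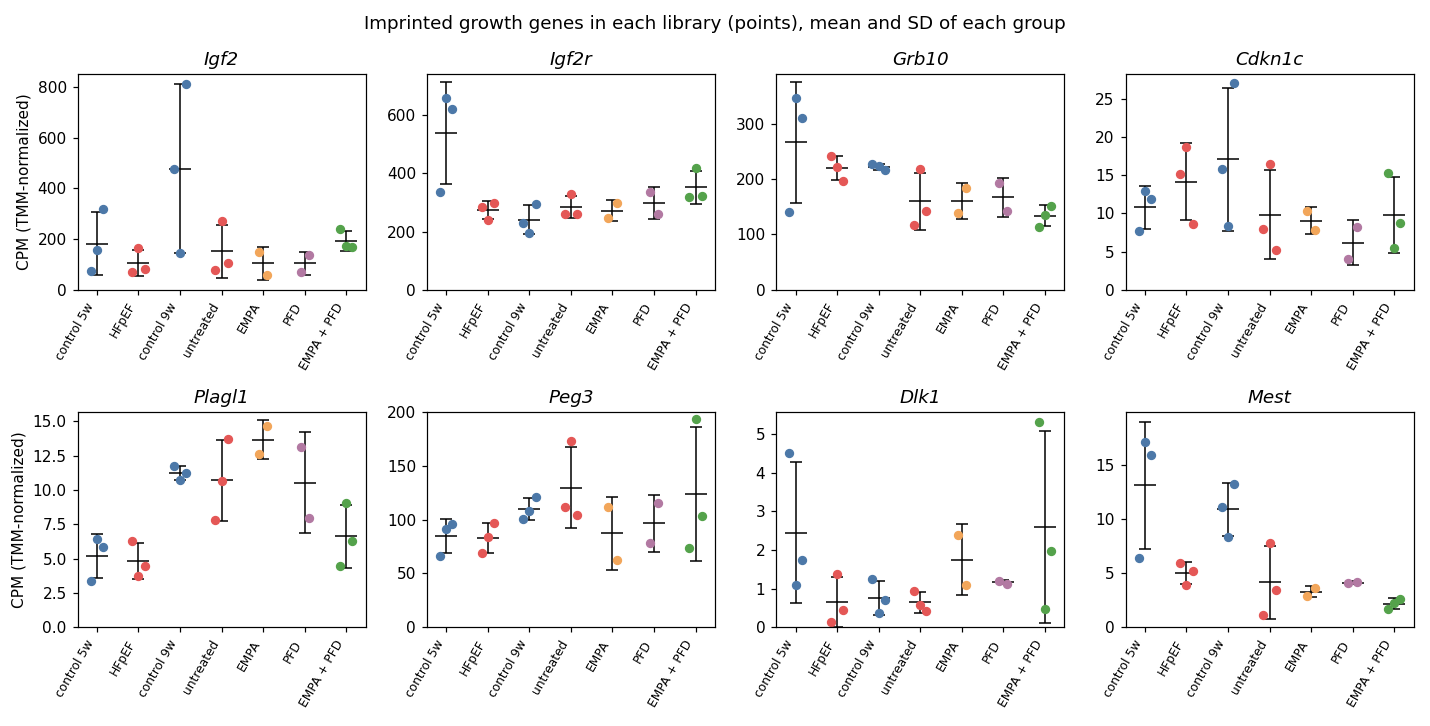
Level of each gene in CPM after TMM normalization (linear axes from 0), with 1 point per library, a line at the group mean and bars of 1 SD. Igf2r was highest in control 5w, Plagl1 was below 6.5 CPM in each of the 6 week 5 libraries, and Mest was lower in most libraries of diseased hearts than in controls.

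Igf2r, the receptor that clears IGF2 and carries lysosomal enzymes, had 336, 657 and 622 CPM in control 5w and 230, 196 and 294 CPM in control 9w. The groups did not overlap, and control 5w replicate 1 lay nearest to the week 9 libraries. The mean was 538 ± 176 CPM (SD, n = 3) at week 5 and 240 ± 49.7 CPM (SD, n = 3) at week 9. Igf2r fell by 1.16 on the log2 scale (SE 0.23, adjusted p = 0.00228), a level 2.24-fold lower. Without control 5w replicate 2 the difference was -0.996 (adjusted p = 0.0127), just short of the fold threshold. Over the other settings the adjusted p ranged from 3.23e-08 to 0.0268. Fewer cells of a type and less RNA per cell cannot be told apart in these libraries.

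Markers of fibroblasts moved with Igf2r. Of the 6 fibroblast markers (Col1a1, Col1a2, Pdgfra, Tcf21, Lum and Dpt), 5 were lower in control 9w at an adjusted p under 0.05 and 0 were higher, with a median log2 difference of -1.82. Their summed level was 1806, 14492 and 11765 CPM in control 5w and 1449, 1031 and 1491 CPM in control 9w. Control 5w replicate 1 had both the lowest Igf2r level and the lowest fibroblast sum of its group. Col1a1 had the highest mean of them over the 19 libraries, with 5269, 127604 and 100202 counts in control 5w and 2877, 1670 and 4030 in control 9w, where Dpt had more (5757, 4132 and 5949). No marker of the list was at 0 across the libraries. Macrophage markers were lower at week 9 in 4 of 5 genes, with sums of 282, 500 and 438 CPM in control 5w and 135, 99.6 and 162 CPM in control 9w. Csf1r had the highest mean of these over all libraries. Endothelial markers were higher in 4 of 5 genes (Kdr had the highest mean over all libraries), with sums of 1301, 1040 and 1217 CPM in control 5w and 2553, 2824 and 2081 CPM in control 9w. Of the other lists, 2 of 5 atrial markers were higher and 1 lower, 1 of 6 cardiomyocyte markers was lower, and 1 of 6 smooth muscle, 1 of 3 adipocyte, 1 of 3 skeletal muscle and 1 of 3 mesothelial markers were higher. The cardiomyocyte sum was 69283, 28035 and 31150 CPM in control 5w, so that replicate 1 stood apart there too. Of the cardiomyocyte markers Myh6 had the highest mean over all libraries. The part of these cell type markers in the Igf2r difference was not tested.

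In HFpEF, Igf2r was at 283, 239 and 297 CPM, below each control 5w library. It fell by 0.98 on the log2 scale against control 5w (SE 0.23, adjusted p = 0.0122), which passed the test and not the fold threshold. With HFpEF replicate 2 alone, which had Eif2s3y counts, the difference was -1.17 with an adjusted p of 0.0581, and with only the HFpEF and control 5w libraries in the model the adjusted p was 0.0791. The difference reached the fold threshold without control 5w replicate 1 (-1.22, adjusted p = 0.00339), HFpEF replicate 1 (-1.01, adjusted p = 0.0289) or HFpEF replicate 3 (-1.04, adjusted p = 0.0237). Here the summed fibroblast markers were 5981, 3799 and 4243 CPM, and 0 of the 6 passed edgeR's test against control 5w (1 at an unadjusted p under 0.05, other tools not applied to the list). Other markers passed there: 3 of 4 chondrocyte and bone, 2 of 5 endothelial, 2 of 5 Schwann cell, 2 of 3 mesothelial, 1 of 3 adipocyte and 1 of 4 lymphocyte markers were higher. Of the cardiomyocyte markers 2 of 6 were lower, as were 1 of 6 smooth muscle and 1 of 5 atrial markers. Their part in the Igf2r difference was not tested.

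In the untreated hearts of week 9 Igf2r had 262, 329 and 262 CPM, which overlapped HFpEF. The difference between untreated and HFpEF was 0.06 on the log2 scale (SE 0.23, adjusted p = 0.90). Untreated also overlapped control 9w, with a log2 difference of 0.24 (SE 0.23, adjusted p = 0.617). The change from week 5 to week 9 differed between diseased and control hearts by 1.22 on the log2 scale (SE 0.33, adjusted p = 0.0189). This difference of the changes contains the same control 5w libraries as the comparison with HFpEF at week 5. Igf2r was the 1 of 8 genes that was a DEG in this test of the difference, against 12.0% of all tested genes, and also the 1 of 8 at an adjusted p under 0.05 alone, against 20.0%. Without HFpEF replicates 1 and 3 this difference was 1.42 (adjusted p = 0.0433), and without control 9w replicate 2 it was 1.09 (adjusted p = 0.0549). In the same test 0 of 6 fibroblast markers passed (1 at an unadjusted p under 0.05, edgeR alone), with a median log2 difference of 0.89, in the direction of Igf2r. Higher were 2 of 6 cardiomyocyte, 2 of 6 smooth muscle and 1 of 5 atrial markers. Lower were 2 of 3 mesothelial, 2 of 3 erythroid, 1 of 5 endothelial, 1 of 3 adipocyte and 1 of 4 chondrocyte and bone markers, and their part was not tested.

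The treated hearts had 247 and 297 CPM with EMPA, 336 and 259 CPM with PFD, and 317, 418 and 323 CPM with EMPA + PFD. Thus control 5w replicates 2 and 3 were the libraries with the highest Igf2r, and all libraries of the other 6 groups lay between 196 and 418 CPM.

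Igf2, the ligand, had 74.7, 155 and 317 CPM in control 5w and 478, 144 and 812 CPM in control 9w. Both control groups were widely spread and overlapped. The difference was 1.39 on the log2 scale (SE 0.65, adjusted p = 0.110) and did not pass the test. It was 0.77 without control 9w replicate 3 and 2.06 without control 5w replicate 3. HFpEF had 70.7, 165 and 82.9 CPM, and untreated had 77.8, 272 and 105 CPM. Neither the difference of HFpEF from control 5w (-0.78, SE 0.65, adjusted p = 0.404) nor that of untreated from control 9w (-1.66, SE 0.66, adjusted p = 0.193) passed. Both passed with voom with quality weights (-1.52, adjusted p = 0.0126, and -2.14, adjusted p = 0.000703). The first was -0.11 without control 5w replicate 3 and -1.25 without HFpEF replicate 2, while the second was -2.38 when untreated replicate 2 was left out and -1.03 when control 9w replicate 3 was. EMPA had 151 and 58.2 CPM, PFD 72.0 and 136 CPM, and EMPA + PFD 239, 173 and 169 CPM.

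Within groups, Igf2 was highest in the libraries with atrial markers at week 9. The summed level of the 5 atrial and conduction markers, of which Myl7 had the highest mean, was 1576, 15.6 and 6463 CPM in control 9w, in the same order of libraries as Igf2. In untreated the sum was 32.3, 5203 and 59.7 CPM, and replicate 2 again had the most Igf2. In control 5w it was 749, 385 and 397 CPM, where the library with the highest sum had the least Igf2. H19, the neighbouring imprinted transcript, had 291, 10.3 and 447 CPM in control 9w and 5.70, 201 and 7.37 CPM in untreated. It had 46.0, 160 and 265 CPM in control 5w and followed the order of Igf2 in these 3 groups. It did not in HFpEF (73.3, 147 and 43.3 CPM) or in EMPA + PFD (171, 98.0 and 112 CPM). The summed fibroblast markers also had the order of Igf2 in control 9w (1449, 1031 and 1491 CPM). They were highest in untreated replicate 2 (1598, 3503 and 1439 CPM) and lowest in control 5w replicate 1, the library with the least Igf2. In HFpEF, EMPA and PFD the library with the most Igf2 had the lowest fibroblast sum. The part of atrial tissue or of other cell types in the spread of Igf2 was not tested. Without untreated replicate 2 the log2 difference of Igf2 between untreated and HFpEF was -0.21, against 0.52 with it.

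Grb10, an adaptor that dampens signalling from the insulin and IGF1 receptors, had 141, 347 and 311 CPM in control 5w and 227, 224 and 216 CPM in control 9w. The week 9 controls lay inside the range of week 5, and the difference was -0.26 on the log2 scale (SE 0.28, adjusted p = 0.493). It was -0.56 without control 5w replicate 1 and -0.024 without control 5w replicate 2. Over all 19 libraries Grb10 ran from 114 to 347 CPM. In no comparison of the edgeR test did it pass, while with voom its adjusted p was under 0.05 in 4. These were control 9w against control 5w (-0.47, adjusted p = 0.00269), HFpEF against control 5w (-0.61, adjusted p = 0.00934), untreated against control 9w (-0.70, adjusted p = 0.000899) and untreated against HFpEF (-0.56, adjusted p = 0.0296).

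Cdkn1c, an inhibitor of cyclin-dependent kinases, had 7.63, 12.9 and 11.9 CPM in control 5w and 15.8, 8.36 and 27.0 CPM in control 9w. The groups overlapped, and control 9w had its libraries in the same order as for Igf2. The difference was 0.66 on the log2 scale (SE 0.49, adjusted p = 0.313), and without control 9w replicate 3 it was 0.16. Across the libraries the gene ran from 4.05 to 27.0 CPM, with a median of 8.67 CPM. It did not pass edgeR's test in any of the 8 comparisons. It passed with voom in untreated against control 9w (-1.38, adjusted p = 0.00434) and in the difference of the changes (-1.16, adjusted p = 0.0461).

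Plagl1, a zinc finger transcription factor that restrains cell growth, had 3.39, 6.44 and 5.81 CPM in control 5w and 11.7, 10.7 and 11.3 CPM in control 9w. Each control 9w library was above each control 5w library. Plagl1 rose by 1.10 on the log2 scale (SE 0.31, adjusted p = 0.0142), a level 2.15-fold higher, from 36 to 83 counts per library at week 5 and from 87 to 113 at week 9. Without control 5w replicate 1 the difference was 0.88 (adjusted p = 0.0467), and voom with quality weights gave 0.97, both short of the fold threshold. Endothelial markers moved the same way between these groups (4 of 5 higher, median log2 difference 1.03, sums above), and the part of these and other markers in the Plagl1 difference was not tested.

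The diseased hearts showed Plagl1 levels of 6.31, 3.76 and 4.46 CPM in HFpEF and 7.81, 10.6 and 13.7 CPM in untreated. These groups did not overlap either, and the log2 difference was 1.14 (SE 0.31, adjusted p = 0.0821), which did not pass. It passed with DESeq2 (1.14, adjusted p = 0.0129) and with voom (1.37, adjusted p = 0.00392), and the adjusted p ranged from 0.00392 to 0.447 over the other settings, the highest being without HFpEF replicates 1 and 3. It also passed without control 5w replicate 1 (adjusted p = 0.0488) and without untreated replicate 2 (adjusted p = 0.0445). Between untreated and HFpEF 0 of 5 endothelial markers passed edgeR's test, with a median log2 difference of 0.30. In HFpEF against control 5w 2 of 5 were higher (median 0.68), while Plagl1 differed by -0.10 (SE 0.31, adjusted p = 0.835). The part of these markers in the levels of Plagl1 was not tested. The change from week 5 to week 9 differed between diseased and control hearts by 0.04 (SE 0.43, adjusted p = 0.963). EMPA had 12.6 and 14.7 CPM, PFD 13.1 and 7.92 CPM, and EMPA + PFD 4.49, 9.08 and 6.27 CPM. Both EMPA libraries, which like the week 5 groups had at most 3 RT1-CE16 counts, were above all 6 week 5 libraries. EMPA also differed from the week 5 groups in time point and drug, and from control 5w in diet and L-NAME. This pair of values therefore cannot tell these differences apart. It was looked at after the levels were seen and was not tested. The log2 difference of EMPA + PFD from untreated was -0.70 (SE 0.31, adjusted p = 0.135), and with voom -0.88 (adjusted p = 0.0184).

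**Figure D2:**
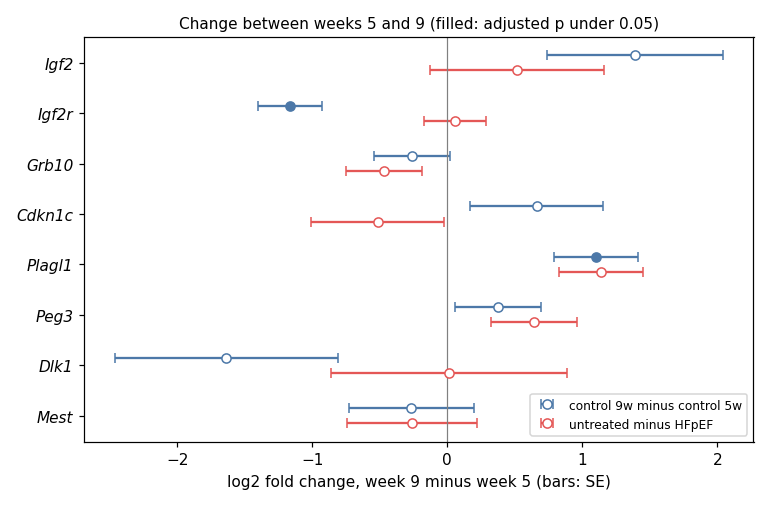
Log2 difference between week 9 and week 5 (horizontal axis) of each gene in controls (control 9w minus control 5w, blue) and in diseased hearts (untreated minus HFpEF, red), with bars of 1 SE and filled points at an adjusted p under 0.05. Igf2r was at -1.16 in controls and 0.06 in diseased hearts, and Plagl1 was at 1.10 and 1.14.

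Peg3, a large zinc finger protein, had 66.4, 91.7 and 96.3 CPM in control 5w and 100.5, 108 and 121 CPM in control 9w. The control groups did not overlap, by a gap that was small beside their spread, and the difference was 0.37 on the log2 scale (SE 0.32, adjusted p = 0.378). HFpEF had 69.1, 84.1 and 96.8 CPM and untreated 112, 173 and 105 CPM, again without overlap and without passing the test (0.64, SE 0.32, adjusted p = 0.242). Without untreated replicate 2 this difference was 0.38, and without control 5w replicate 1 that of the control groups was 0.24. The highest level, 194 CPM, was in EMPA + PFD replicate 2.

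Dlk1, a membrane protein related to the Notch ligands, had the fewest counts of the 8 genes, from 2 to 48 per library. Control 5w had 48, 14 and 22 counts (4.52, 1.09 and 1.75 CPM) and control 9w had 11, 3 and 7 counts (1.24, 0.369 and 0.698 CPM). The groups overlapped, and the log2 difference was -1.64 (SE 0.83, adjusted p = 0.135). It was -0.85 without control 5w replicate 1 and -2.14 without control 9w replicate 1. HFpEF had 2, 15 and 5 counts and EMPA + PFD had 45, 4 and 19 counts, so that replicates of a group differed more than 5-fold in both. Dlk1 did not pass the test in any of the 8 comparisons.

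Mest, a protein of the hydrolase fold that is expressed in growing mesoderm, had 6.41, 17.1 and 15.9 CPM in control 5w and 11.2, 8.36 and 13.3 CPM in control 9w. The control groups overlapped (log2 difference -0.27, SE 0.46, adjusted p = 0.682), and the difference passed with voom alone (-0.51, adjusted p = 0.00600). It was -0.58 without control 5w replicate 1 and -0.032 without control 5w replicate 2. HFpEF had 5.95, 3.94 and 5.18 CPM, below each control 5w library. The log2 difference of HFpEF from control 5w was -1.39 (SE 0.48, adjusted p = 0.0526) and did not pass edgeR's test. It passed with DESeq2 (adjusted p = 0.0221) and with voom (adjusted p = 0.000333), and without control 5w replicate 1 (-1.71, adjusted p = 0.0333), untreated replicate 1 (-1.39, adjusted p = 0.0183) or untreated replicate 2 (-1.38, adjusted p = 0.0173). Over the settings other than a single library left out, the adjusted p ranged from 0.000333 to 0.161, the highest being without HFpEF replicates 1 and 3.

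At week 9, untreated had 1.16, 7.79 and 3.48 CPM of Mest, below each control 9w library. Replicate 2, the library with atrial markers, was the highest. The log2 difference from control 9w was -1.38 (SE 0.48, adjusted p = 0.144), and without replicate 2 it was -2.23 (adjusted p = 0.0172). With voom it was -1.94 (adjusted p = 0.000260), and the adjusted p ranged up to 0.332 over the settings. EMPA had 2.93 and 3.64 CPM, PFD 4.05 and 4.22 CPM, and EMPA + PFD 1.66, 2.27 and 2.61 CPM. The difference of EMPA + PFD from untreated was -0.94 (SE 0.52, adjusted p = 0.216) and did not pass, while without untreated replicate 1 it was -1.37 (adjusted p = 0.0400) and without untreated replicate 2 it was -0.085 (adjusted p = 0.946). Mest had 11 to 221 counts per library.

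In HFpEF against control 5w, 0 of the 8 genes were DEGs, against 8.69% of tested genes. Igf2r was the 1 of 8 with an adjusted p under 0.05 alone, against 20.0% of tested genes. By edgeR 3 of 8 had an unadjusted p under 0.05, against 35.8% of tested genes, and by the DEG thresholds DESeq2 called 1 and voom 3. Among all tested genes DESeq2 called 1271 and voom 1363. The count was 2 without control 5w replicate 1 (Igf2r and Mest), 1 without HFpEF replicate 1 or 3 (Igf2r) and 1 without untreated replicate 1 or 2 (Mest). With the libraries of the compared groups alone the DEGs among all tested genes were 460, against 1076 as reported. This comparison shares the control 5w libraries with that of the control groups, so the values of Igf2r in both rest on the same 3 libraries.

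In untreated against control 9w, 0 of 8 were DEGs, against 0.912% of tested genes, and 0 of 8 passed the adjusted p alone, against 1.78%. The unadjusted p was under 0.05 for 2 of 8 (Igf2 and Mest), against 18.2% of tested genes, DESeq2 called 0 and voom 3. Without untreated replicate 2 the count was 1 (Mest), and the DEGs among all tested genes were 413, against 113 with it. They were 7 without control 9w replicate 2, 21 without control 9w replicate 1, 14 without untreated replicate 1 and 28 without untreated replicate 3. With DESeq2 they were 297 and with voom 1037.

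In untreated against HFpEF, 0 of 8 were DEGs, against 0.194%, and 0 passed the adjusted p alone, against 0.226%. The unadjusted p was under 0.05 for 1 of 8 (Plagl1), against 22.7% of tested genes, and DESeq2 and voom each called 1. The count was 1 (Plagl1) without control 5w replicate 1 or untreated replicate 2. The DEGs among all tested genes, 24 with every library, were 933 without untreated replicate 2, 260 without HFpEF replicate 2 and 181 without control 5w replicate 1. They were 4 without HFpEF replicate 1 and 6 without untreated replicate 1 or 3. Without control 5w replicate 2 or 3, HFpEF replicate 3 or control 9w replicate 1 they were 14, 9, 10 and 8. They were 1 with the compared groups alone, 441 with DESeq2 and 1076 with voom.

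Under treatment, 0 of 8 were DEGs in EMPA + PFD against untreated, where 3.82% of tested genes were, and 0 of 8 passed the adjusted p alone, where 12.1% did. The unadjusted p was under 0.05 for 2 of 8 (Dlk1 and Plagl1), against 32.7% of tested genes, and DESeq2 and voom each called 0. Without untreated replicate 1 the count was 1 (Mest), and the DEGs among all tested genes were 910, against 473 with it. They were 83 and 210 without untreated replicates 2 and 3, and 793, 59 and 159 without EMPA + PFD replicates 1, 2 and 3. With the libraries of the compared groups alone they were 5, with DESeq2 714 and with voom 834.

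As single drugs EMPA and PFD gave few DEGs by edgeR. For EMPA against untreated the count was 0 of 8 by both rules, against 0.0404% of tested genes by both. For PFD against untreated it was 0 of 8 by both rules, against 0.00807%. In these single-drug comparisons 0 of 8 had an unadjusted p under 0.05 in edgeR, against 8.63% of tested genes with EMPA and 5.21% with PFD, and DESeq2 and voom each called 0. Among all tested genes DESeq2 called 51 with EMPA and 4 with PFD, and voom called 24 and 5, against 5 and 1 by edgeR. The DEGs among all tested genes were 5 with EMPA, and 9, 11 and 15 without HFpEF replicate 1, HFpEF replicate 2 and EMPA replicate 2. With PFD there was 1 DEG, and with single libraries left out there were 0 to 2 (2 without control 5w replicate 1 or HFpEF replicate 3).

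Other imprinted genes were examined as a list of 56 symbols, of which 45 were in the count files and 38 were tested. Between control 5w and control 9w, 3 rose and 4 fell as DEGs and 31 were not DEGs, so 7 of 38 were called, against 14.7% of all tested genes, with a median log2 difference of -0.043 against -0.038 over all tested genes. Nap1l5, a nucleosome assembly protein relative, had 1.51, 4.58 and 3.34 CPM in control 5w and 15.2, 13.5 and 34.9 CPM in control 9w, without overlap (2.74, SE 0.65, adjusted p = 0.00550). Impact, a regulator of translation under stress, rose by 1.05 (SE 0.18, adjusted p = 0.000797), and by 0.94 without control 9w replicate 2, short of the fold threshold. Snurf rose by 2.29 (SE 0.64, adjusted p = 0.0137) at 1 to 4 counts per library in control 5w, and 8 to 10 in control 9w, and without control 5w replicate 2 the adjusted p was 0.0609.

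Ndn, a growth suppressor of the MAGE family, had 6.59, 25.4 and 22.8 CPM in control 5w and 3.50, 3.32 and 3.49 CPM in control 9w. All week 9 controls were lower, and the fall was 2.41 on the log2 scale (log2 difference -2.41, SE 0.53, adjusted p = 0.00365). The amino acid transporter Slc38a4 (-2.29, adjusted p = 0.00718), the ubiquitin ligase adaptor Asb4 (-1.74, adjusted p = 0.00747) and the ubiquitin ligase Herc3 (-1.45, adjusted p = 0.00142) fell too. Slc38a4 and Asb4 had 2 to 8 counts per library in control 9w. Of 14 tested neighbours of the 8 genes 3 had an adjusted p under 0.05 between the control groups, against 34.5% of tested genes, and each differed less than 2-fold. These were Copg2, beside Mest (-0.97, SE 0.15, adjusted p = 0.000449), and Nap1l4 (-0.86, SE 0.22, adjusted p = 0.00938) and Tssc4 (0.64, SE 0.15, adjusted p = 0.00579), near Cdkn1c, while H19, beside Igf2, differed by 0.67 (SE 1.22, adjusted p = 0.697). In HFpEF against control 5w 7 of the 14 had an adjusted p under 0.05, against 20.0% of tested genes, and 4 were DEGs, against 8.69%. These were Dio3 (2.84, SE 0.84, adjusted p = 0.0297), Zim1 (-1.81, SE 0.50, adjusted p = 0.0224), Kcnq1 (-1.30, SE 0.34, adjusted p = 0.0173) and Ddc (-1.96, SE 0.45, adjusted p = 0.00986). Dio3 had 0 to 9 counts per library in control 5w and 10 to 74 in HFpEF, and Zim1 had 24 to 36 and 4 to 11.

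In the other comparisons the same list had 2 rises and 6 falls as DEGs in HFpEF against control 5w, 8 of 38 against 8.69% of tested genes, and 3 rises and 0 falls in EMPA + PFD against untreated, 3 of 38 against 3.82%. In the difference of the changes it had 4 rises and 0 falls, 4 of 38 against 12.0%. By edgeR it had 0 in untreated against control 9w, untreated against HFpEF, EMPA against untreated and PFD against untreated, and other tools were not applied to the list there. At an unadjusted p under 0.05 it had 4, 12, 2 and 3 of 38 in these comparisons, against 18.2%, 22.7%, 8.63% and 5.21% of tested genes. The median log2 difference in HFpEF against control 5w was -0.20, and 0.022 over all tested genes.

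The IGF axis list held 20 ligands, receptors, substrates, binding proteins and their partners, 14 of them tested. Between the control groups 1 rose and 3 fell as DEGs, 4 of 14 against 14.7% of all tested genes, with a median log2 difference of -0.071. Igfbp6, a binding protein that prefers IGF2, had 76.3, 417 and 340 CPM in control 5w and 28.3, 31.7 and 36.2 CPM in control 9w. The groups did not overlap, and the log2 difference was -3.11 (SE 0.54, adjusted p = 0.000894). Fibroblast markers fell between the same groups (5 of 6 lower, median log2 difference -1.82), and control 5w replicates 2 and 3 were highest both in their sum and in Igfbp6. The part of these markers in the falls of this list and of the other imprinted genes was not tested. Irs1, a substrate of the insulin and IGF1 receptors, had 14.98, 24.1 and 23.0 CPM and then 6.77, 4.06 and 6.88 CPM (-1.81, SE 0.35, adjusted p = 0.00174). Of the 8 listed genes that fell as DEGs, control 5w replicate 1 was the lowest of its group in 4 (Ndn, Slc38a4, Igfbp6 and Irs1), as for Igf2r, and the highest in 4 (Asb4, Herc3, Igf2bp3 and Grb14).

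Igf2bp3, a fetal protein that binds Igf2 mRNA, had 36, 31 and 32 counts in control 5w and 4, 2 and 5 in control 9w (-2.74, SE 0.63, adjusted p = 0.00474). Stc1, whose product inhibits a protease of IGF binding proteins, rose by 1.37 (SE 0.45, adjusted p = 0.0287), and the adjusted p was 0.0873 without control 5w replicate 1 and 0.0676 without control 9w replicate 3. It was also above the threshold without control 9w replicate 1 (0.0580) and replicate 2 (0.0550). In HFpEF against control 5w the list had 0 rises and 2 falls, 2 of 14 against 8.69% of tested genes, and in EMPA + PFD against untreated 2 rises and 0 falls, 2 of 14 against 3.82%.

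Of 9 relatives of the 8 genes by protein family, 8 were tested, and 1 rose and 1 fell between the control groups as DEGs, 2 of 8 against 14.7% of all tested genes. The count was 3 without control 5w replicate 2 or control 9w replicate 3, and 1 without control 9w replicate 1 or 2. Plag1, of the same zinc finger family as Plagl1, had 14.2, 7.52 and 9.47 CPM in control 5w and 28.5, 32.1 and 22.5 CPM in control 9w, without overlap (1.42, SE 0.32, adjusted p = 0.00403). Grb14, the relative of Grb10, had 271, 184 and 179 CPM and then 86.7, 89.8 and 107 CPM (-1.16, SE 0.38, adjusted p = 0.0274). Its adjusted p was 0.0835 without control 5w replicate 1, 0.0855 without control 9w replicate 1 and 0.0861 without control 9w replicate 2. Of 8 factors that set or keep imprints, 7 were tested and 0 were DEGs between the control groups by edgeR, DESeq2 or voom. At an adjusted p under 0.05 alone 1 was higher and 1 lower, 2 of 7 against 34.5% of tested genes. The same 2 had an unadjusted p under 0.05, against 45.4% of tested genes, and without control 9w replicate 3 there was 1 DEG. In untreated against control 9w 1 of the 7 was a DEG, and lower, against 0.912% of tested genes.

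The genes whose log2 CPM followed each member most closely over the 19 libraries were found by Pearson correlation among 11737 other genes. These values describe libraries that also share groups and depth, and no test was made. For Igf2 they were Krt77 (r = 0.824) and Sall1 (r = 0.813), for Igf2r Xpr1 (r = 0.935) and Mlec (r = 0.915), and for Grb10 Phtf1 (r = 0.925) and Rcn1 (r = 0.922). For Cdkn1c they were Ltbp1 (r = 0.882) and Cdh11 (r = 0.868), and for Plagl1 Adam33 (r = 0.857) and Zmynd11 (r = 0.832). For Peg3 they were Foxp2 (r = 0.735) and Nup98 (r = 0.726), and for Dlk1 Hist1h2bo (r = 0.808) and Slc26a9 (r = 0.768). Mest was closest to another of the 8 genes, Grb10 (r = 0.867), and then to Fbxo5 (r = 0.864), an inhibitor of the anaphase-promoting complex. By Spearman correlation of CPM, Grb10 ranked only 25 for Mest (rho = 0.832, against 0.909 for the closest gene). Among the 8, Igf2 and Cdkn1c had r = 0.673, and Igf2 and Igf2r had r = 0.105.

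On the GRCr8 assembly, as given by RefSeq, the models of 4 of the 8 genes overlapped others. Igf2 overlapped Mir483 and the locus LOC102548568, Igf2r a long noncoding RNA and a small nucleolar RNA, Peg3 the noncoding Apeg3, and Plagl1 a long noncoding RNA. The files were counted on rn6, and the strand setting of the counting was not given in the sources used here. Without that setting it is not known whether reads of such overlapping genes were kept apart.

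Promoter windows of 300 bases (250 before to 50 after the start of the gene) were taken from RefSeq on GRCr8 and matched 7 of the 8 genes, all but Cdkn1c, with an additional window for Igf2. They were searched on both strands for GGGGCCCC, the palindromic core known for the zinc fingers of Plagl1. It was in the window of 1 of the 7 genes, Peg3, and in 0.858% of the 33469 windows of the table. A match is a description and not a binding site. The windows of Igf2r and Plagl1 are shown because these genes changed between the control groups, and that of Peg3 for its match, which is in capitals.

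The window of Igf2r lies at chr1:50526628-50526927 on the + strand, with 30 CpG, more than 89.7% of all windows. That of Plagl1 lies at chr1:9297214-9297513 on the + strand, with 29 CpG, more than 88.5% of windows. That of Peg3 lies at chr1:76130744-76131043 on the + strand, with 16 CpG, more than 69.5% of windows.
Igf2r: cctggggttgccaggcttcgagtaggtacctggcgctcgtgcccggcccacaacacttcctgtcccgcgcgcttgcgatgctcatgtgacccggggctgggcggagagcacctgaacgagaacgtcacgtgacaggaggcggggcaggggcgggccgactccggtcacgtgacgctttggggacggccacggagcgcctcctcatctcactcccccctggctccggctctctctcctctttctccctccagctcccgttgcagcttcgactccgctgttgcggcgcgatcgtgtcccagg
Plagl1: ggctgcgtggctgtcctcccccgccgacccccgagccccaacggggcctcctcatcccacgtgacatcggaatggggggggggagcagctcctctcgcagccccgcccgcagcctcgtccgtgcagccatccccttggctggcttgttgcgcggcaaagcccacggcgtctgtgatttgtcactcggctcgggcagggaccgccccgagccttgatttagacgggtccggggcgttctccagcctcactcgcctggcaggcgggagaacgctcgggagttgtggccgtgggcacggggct
Peg3: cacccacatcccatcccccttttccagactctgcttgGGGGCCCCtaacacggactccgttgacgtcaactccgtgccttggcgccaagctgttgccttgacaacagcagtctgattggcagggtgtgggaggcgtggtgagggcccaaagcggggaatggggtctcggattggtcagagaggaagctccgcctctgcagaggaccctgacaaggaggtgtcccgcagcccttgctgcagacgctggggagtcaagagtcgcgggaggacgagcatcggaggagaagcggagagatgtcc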

How the data were processed

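Left ventricles of 7 groups of rats gave 19 libraries, grouped by their labels. The deposited counts are whole numbers for each gene symbol. The authors made them with htseq-count from HISAT2 alignments to rn6, after trimming by Trim Galore. Versions, annotation and strand setting were not given in the sources used here. Totals ran from 7430539 to 13017754 counts, which leaves genes near 3 counts imprecise.

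Counts were normalized by TMM and tested across all 12388 genes kept by filterByExpr with the quasi-likelihood test of edgeR 4.0.16 in R 4.3.3, in 1 model of 7 groups, with Benjamini-Hochberg adjustment over all tested genes in each of 8 comparisons. DEGs had an adjusted p under 0.05 and differed at least 2-fold. Correlations used log2 CPM with a prior count of 2 and genes with a mean of at least 1 CPM. The test was checked on simulated counts, and the outcome of that check is not given here.

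Named were the 8 genes in every comparison, of each fixed list every DEG between the control groups (or the 5 largest rises and 5 largest falls where there were more), the 2 genes most correlated with each of the 8, and Eif2s3y and RT1-CE16. After their values were seen, H19 and the neighbours that passed (between the control groups) or were DEGs (in HFpEF against control 5w) were named, Myl4 and Col2a1 as library checks, and Dpt and the marker with the highest mean of each list shown. The members and lists were chosen with earlier results of these data known.

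Alternatives were other normalizations (relative log expression, upper quartile), other filters, DESeq2 1.42.0, voom with quality weights in limma 3.58.1, the compared groups alone, a replicate block, omission of each library and of HFpEF replicates 1 and 3, and the adjusted p alone. Applying these to the counts and genes of the fixed lists was chosen after seeing the data.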

Additional observations from a re-analysis of the deposited data

Results flagged for a closer look

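The change of Igf2r between weeks 5 and 9 differed between diseased and control hearts. HFpEF was below control 5w at week 5 (log2 difference -0.98, SE 0.23, adjusted p = 0.0122 in edgeR's test). At week 9 untreated and control 9w overlapped (0.24, SE 0.23, adjusted p = 0.617 in the same test). The control 5w libraries enter both the week 5 difference and the result that follows. The difference of the changes (untreated minus HFpEF, less control 9w minus control 5w) was 1.22 on the log2 scale (SE 0.33, adjusted p = 0.0189 in edgeR's quasi-likelihood test), and it was singled out because the test of the difference itself passed its threshold. The adjusted p was 0.0549 without control 9w replicate 2. In this test 0 of 6 fibroblast markers passed, with a median log2 difference of 0.89 in the direction of Igf2r, and 5 of 6 were lower in control 9w than in control 5w (median -1.82). Of other markers, 2 of 6 cardiomyocyte and 2 of 6 smooth muscle markers were higher, and 2 of 3 mesothelial and 2 of 3 erythroid markers were lower. The part of these markers was not tested. HFpEF and untreated differed in RT1-CE16 counts in every library, as did the control groups. Eif2s3y had 0 counts in HFpEF replicates 1 and 3 and in every untreated library, and at least 613 counts in every control library. No group had 4 or more libraries, so no library was tested as standing apart from its group.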

How the results depend on the processing

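For the 8 genes in 8 comparisons (64 log2 differences), 526 of 573 values under another setting kept their direction and their side of an adjusted p of 0.05, 2 lost the call, 15 gained it and 30 changed direction. With single libraries left out these were 1155 of 1216, with 1 lost, 7 gained and 53 turned. Igf2r and Plagl1 passed the test between the control groups in each of the 9 other settings (adjusted p 3.23e-08 to 0.0268 for Igf2r and 6.36e-05 to 0.0224 for Plagl1). Dlk1 did not pass the filter in 3 fits of the compared groups alone. Where a group was left with 1 library, that library was assumed to vary like the other groups. The cause of the changes below was not tested. Genes near 3 counts limit what depth can show, Dlk1 most of all.

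Counts of DEGs are given below as the value under the setting, against the count as reported. Among all tested genes they were, with voom, 2716 (against 1817) for control 9w minus control 5w and 1363 (against 1076) for HFpEF minus control 5w. With DESeq2 these counts were 1958 and 1271. With voom, among the 8 they were 1 (against 2) for control 9w minus control 5w, 3 (against 0) for HFpEF minus control 5w, 3 (against 0) for untreated minus control 9w, 1 (against 0) for untreated minus HFpEF and 2 (against 1) for the difference of the changes, and among all tested genes they were 1037 (against 113) for untreated minus control 9w, 1076 (against 24) for untreated minus HFpEF, 2559 (against 1489) for the difference of the changes, 834 (against 473) for EMPA + PFD minus untreated, 24 (against 5) for EMPA minus untreated and 5 (against 1) for PFD minus untreated. By the adjusted p alone, among all tested genes they were 4276 (against 1817) for control 9w minus control 5w, 2478 (against 1076) for HFpEF minus control 5w, 220 (against 113) for untreated minus control 9w, 2473 (against 1489) for the difference of the changes and 1501 (against 473) for EMPA + PFD minus untreated, and among the 8 they were 1 (against 0) for HFpEF minus control 5w. With DESeq2, among the 8 they were 1 (against 0) for HFpEF minus control 5w and 1 (against 0) for untreated minus HFpEF, and among all tested genes they were 297 (against 113) for untreated minus control 9w, 441 (against 24) for untreated minus HFpEF, 714 (against 473) for EMPA + PFD minus untreated, 51 (against 5) for EMPA minus untreated and 4 (against 1) for PFD minus untreated. With the compared groups alone, among all tested genes they were 460 (against 1076) for HFpEF minus control 5w, 1 (against 24) for untreated minus HFpEF, 5 (against 473) for EMPA + PFD minus untreated and 0 (against 1) for PFD minus untreated. Without HFpEF replicates 1 and 3, among all tested genes they were 9 (against 24) for untreated minus HFpEF, 15 (against 5) for EMPA minus untreated and 2 (against 1) for PFD minus untreated. With no filter beyond 1 count, among all tested genes they were 2 (against 1) for PFD minus untreated. With each library left out in turn, DEGs among the 8 ranged from 1 to 2 for control 9w minus control 5w, 0 to 2 for HFpEF minus control 5w, 0 to 1 for untreated minus control 9w, 0 to 1 for untreated minus HFpEF, 0 to 1 for the difference of the changes and 0 to 1 for EMPA + PFD minus untreated. With each library left out in turn, DEGs among all tested genes ranged from 1206 to 2025 for control 9w minus control 5w, 7 to 413 for untreated minus control 9w, 4 to 933 for untreated minus HFpEF, 877 to 2241 for the difference of the changes, 59 to 910 for EMPA + PFD minus untreated, 4 to 15 for EMPA minus untreated and 0 to 2 for PFD minus untreated. Without untreated replicate 2 the count among all tested genes was 933 for untreated minus HFpEF and 83 for EMPA + PFD minus untreated, and without EMPA + PFD replicate 2 the latter was 59.

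Log2 differences that changed direction had not passed the test as reported. With upper quartile scaling these were Peg3 0.00555 for HFpEF minus control 5w, Dlk1 -0.0130 for untreated minus HFpEF and Grb10 -0.0372 for EMPA minus untreated. With voom these were Cdkn1c -0.22 for HFpEF minus control 5w, Plagl1 0.0373 for untreated minus control 9w, Igf2r -0.12 for untreated minus HFpEF, Mest -0.31 for the difference of the changes, Peg3 0.0700, Cdkn1c 0.50 and Grb10 0.00706 for EMPA + PFD minus untreated, Igf2r 0.0343, Mest 0.20 and Cdkn1c 0.55 for EMPA minus untreated and Mest 0.53 for PFD minus untreated. Without HFpEF replicates 1 and 3 these were Igf2 -0.12, Mest 0.0922 and Dlk1 -1.08 for untreated minus HFpEF. With no filter beyond 1 count these were Dlk1 -0.00501 for untreated minus HFpEF and Grb10 -0.0142 for EMPA minus untreated. With DESeq2 these were Dlk1 -0.00356 for untreated minus HFpEF, Mest -0.0135 for the difference of the changes and Cdkn1c 0.0166 for EMPA + PFD minus untreated. With relative log expression these were Mest -0.00811 for the difference of the changes and Cdkn1c 0.0116 for EMPA + PFD minus untreated. HFpEF minus control 5w ranged, with single libraries left out, as Peg3 -0.17 to 0.0936 and Plagl1 -0.35 to 0.0751. Untreated minus control 9w ranged, with single libraries left out, as Peg3 -0.0225 to 0.38, Dlk1 -0.62 to 0.24 and Plagl1 -0.28 to 0.11. Untreated minus HFpEF ranged, with single libraries left out, as Igf2 -0.21 to 0.98, Igf2r -0.0613 to 0.12, Mest -1.12 to 0.17 and Dlk1 -0.49 to 1.14. The difference of the changes ranged, with single libraries left out, as Mest -0.85 to 0.44, Plagl1 -0.18 to 0.28 and Grb10 -0.50 to 0.0904. EMPA + PFD minus untreated ranged, with single libraries left out, as Peg3 -0.54 to 0.21, Cdkn1c -0.46 to 0.58 and Grb10 -0.43 to 0.0378. EMPA minus untreated ranged, with single libraries left out, as Igf2 -1.38 to 0.19, Igf2r -0.20 to 0.0651, Mest -0.78 to 0.50, Cdkn1c -0.45 to 0.46 and Grb10 -0.21 to 0.30. PFD minus untreated ranged, with single libraries left out, as Igf2 -1.09 to 0.18, Igf2r -0.14 to 0.23, Mest -0.45 to 0.83, Plagl1 -0.44 to 0.29 and Grb10 -0.17 to 0.36.

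The groups share replicate numbers, and whether these pair the hearts is not known. Of 52 same-numbered pairs 11 had a correlation of deviations over 0.1 (range -0.532 to 0.493), and 5 of 19 libraries correlated best with their own number. The deviations cancel within each small group, which by itself forces opposite signs, so these values cannot exclude pairing. With the replicate block, DEGs among all tested genes were 62 (against 113) for untreated minus control 9w, 8 (against 24) for untreated minus HFpEF, 1 (against 5) for EMPA minus untreated and 0 (against 1) for PFD minus untreated, and the count among the 8 genes was the same in every comparison. The directions that changed were Dlk1 -0.20 for untreated minus HFpEF, Mest -0.24 and Plagl1 -0.00850 for the difference of the changes, Cdkn1c 0.0381 for EMPA + PFD minus untreated and Mest 0.17 and Plagl1 0.0427 for PFD minus untreated.

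Of the 16 most similar genes by Pearson correlation, 7 were also among the 2 closest to the same gene by Spearman correlation of CPM. Of the fixed lists, chosen for these alternatives after seeing the data, voom called 11 other imprinted genes (against 7) and 7 genes of the IGF axis (against 4) between the control groups. Among all tested genes voom called 2716 there (against 1817).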
